A study of Mus musculus with 7 samples.

Results

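The circadian clock output genes Per1, Per2, Per3, Cry1, Cry2, Ciart, Nr1d1, Nr1d2, Dbp and Tef were followed library by library in the prefrontal cortex (PFC) of female mice. They are the 10 protein-coding rows with these symbols among the 55416 genes of the count table, of which 21885 are protein-coding. All 10 passed the filter on low counts and were among the 17254 genes tested. C57BL/6 mice received a recombinant adeno-associated virus (AAV) by stereotaxic injection into the PFC, with an EGFP reporter and the human synapsin promoter, which is active in neurons. Ctr mice (3 libraries) received the empty vector, Ref mice (2 libraries) the vector with the reference C allele of the human long noncoding RNA PAXIP1-AS1, and Alt mice (2 libraries) the vector with its alternative G allele. Every group therefore carried AAV and the surgery. The age of the animals, the interval from injection and the hour of dissection stand in no label of these libraries, and no label says whether libraries of a group came from separate animals, so p-values measure the spread between these libraries, which may be technical. The mice lived on a standard light/dark cycle.

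In the molecular clock, the transcription factors CLOCK (or NPAS2) and BMAL1, encoded by Arntl, activate genes whose promoters hold E-box motifs. Among these are the Per and Cry genes, whose proteins return to block the activators, and the genes of the nuclear receptors REV-ERB, which repress Arntl. Dbp and Tef belong to the same activated set and encode PAR bZIP factors, which bind D-box motifs. In tissues outside the brain's pacemaker, including the cortex, transcripts of many of these genes rise and fall over the day, Dbp with one of the widest swings, and Arntl peaks when the Dbp transcript is low. Their levels are therefore read as a sign of the hour at which tissue was taken, and the comparison asks whether the groups stood apart in them.

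Total counts lay between 16655697 (Alt replicate 1) and 20750857 (Ctr replicate 3). Neuron and cortex marker genes were detected in every library. Of 6 markers of the suprachiasmatic nucleus and hypothalamus, the site of the pacemaker, 3 to 5 were at 0, with a summed level of 13.59 to 32.54 CPM, which are counts scaled to a common library size. Nearly all of it was Vip (13.59 to 32.05 CPM), which cortical interneurons also express, and each of the other 5 markers was below 1 CPM in every library. Marker sums of some cell types differed between groups. Over 7 neuron markers the sum was 8484 to 8948 CPM in Ctr, 8405 and 9054 in Ref, and 9750 and 9786 in Alt. Over 7 endothelial and mural markers the sum was 436.6 to 543.5 in Ctr, 535.5 and 653.6 in Ref, and 686 and 698.2 in Alt. In both, Alt lay above all other libraries, whereas the cortex and microglia sums of Alt lay inside the range of Ctr. Over 10 oligodendrocyte markers, none at 0, the sum lay between 2425 and 3431 CPM in Ctr, at 4101 and 5101 in Ref, and at 2374 and 2904 in Alt, and over 7 astrocyte markers, none at 0, between 4866 and 6555 in Ctr, at 6617 and 8281 in Ref, and at 7662 and 11100 in Alt. Most of the astrocyte sum was Slc1a2, a gene of 13133 bases, and without it the other 6 markers summed to 1381 to 1728 CPM in Ctr, 1723 and 1811 in Ref, and 1575 and 1698 in Alt, where the Alt libraries lay inside the range of Ctr. In bulk tissue, fewer cells of a type and less RNA per cell cannot be told apart. Alt replicate 1 stood apart by gene length. Among tested genes of at most 2404 bases, the median deviation from the mean of Ctr was -0.56 on the log2 scale in this library and -0.18 in the other Alt library, while the Ctr and Ref libraries ranged from -0.06 to 0.11.

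To show which known clock motifs lie near their starts, the windows from 250 bases before to 50 bases after the RefSeq transcription start (GRCm38.p6) were searched on both strands. A window was found for 9 of the 10 genes. The E-box CACGTG occurred in windows of Per1, Cry1, Ciart and Tef, against 7.15% of all 32851 promoter windows of this length. The variant CACGTT, read as AACGTG on the other strand, occurred in Cry1, Cry2 and Nr1d1, against 4.68%. The D-box (TTATGTAA or TTACGTAA), the motif of the Dbp and Tef proteins, occurred in Per3, against 1.06%. The site of REV-ERB and ROR receptors (RRE, 2.46% of all windows) and the cAMP response element (TGACGTCA, 1.79%) were in no window of these genes. The windows of Dbp and Nr1d2 held none of these motifs. The stretches below carry the E-box or its variant in 6 of the genes, and the D-box in Per3, with the motif in capitals and each written along the strand of its gene.
Per1 E-box: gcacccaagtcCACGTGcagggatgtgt
Ciart E-box: gcagggggaggCACGTGcagaaccgcac
Cry1 E-box: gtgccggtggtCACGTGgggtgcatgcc
Tef E-box: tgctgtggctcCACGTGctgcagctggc
Cry2 variant: cacatggtgggAACGTGagggggcggag
Nr1d1 variant: gcacagatctcAACGTGccggctgctgg
Per3 D-box: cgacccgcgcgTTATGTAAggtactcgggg
They lie at chr11:69098772-69098799 on the plus strand for Per1, chr3:95882270-95882297 (minus) for Ciart, chr10:85185098-85185125 (minus) for Cry1, chr15:81802535-81802562 (plus) for Tef, chr2:92434219-92434246 (minus) for Cry2, chr11:98775389-98775416 (minus) for Nr1d1 and chr4:151044852-151044881 (minus) for Per3. All lie before the transcription start. A match is a description of the letters and shows no binding in these mice.

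Per length of gene, as deposited TPM, the clock output genes covered a broad range in Ctr. Tef was highest at 189 ± 11.5 TPM (SD, n = 3), followed by Nr1d1 at 119 ± 9.46 and Nr1d2 at 118 ± 15, which did not differ beyond their spread. Per1 (78.3 ± 13.5), Cry2 (73.2 ± 7.1) and Dbp (65.1 ± 19.1) came next and overlapped within their SDs. Per2 (23.8 ± 3.63), Cry1 (23.7 ± 3.35), Ciart (19.9 ± 5.1) and Per3 (15.7 ± 1.6) were lowest, and Per2, Cry1 and Ciart overlapped within their SDs.

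Across the groups, Dbp was the single member past an unadjusted p of 0.05. It was lower in Alt than in Ctr, and lower in Alt than in Ref, while the other 9 genes did not pass in any of the 3 comparisons. In edgeR's quasi-likelihood test with Benjamini-Hochberg adjustment over all 17254 genes tested, no member passed an adjusted p of 0.05. For Alt versus Ctr, 1 of 10 members was lower and 0 were higher at an unadjusted p under 0.05, beside 10.3% of all tested genes lower and 9.45% higher, and 0% of all genes passed the adjusted p. For Alt versus Ref, 1 of 10 was lower and 0 higher, beside 8.83% and 6.71%, and 0.0058% of all genes passed the adjusted p. For Ref versus Ctr, 0 of 10 passed, beside 0.945% lower and 2.19% higher, and 0% at the adjusted p. The shares of members called were thus near those of all genes. The median log2 difference over the 10 members was -0.03 for Alt against Ctr (all tested genes -0.03), -0.01 for Alt against Ref (-0.04) and -0.02 when Ref was set against Ctr (0.01). By DESeq2's Wald test the adjusted p of Dbp was 0.022 for Alt versus Ctr and 0.0224 for Alt versus Ref, past the threshold, and by that tool 6.36% and 2.49% of the 17254 genes passed (8.5% and 3.82% of those to which it gave an adjusted p). The comparisons share libraries, and so their values are not independent of each other.

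**Figure D1:**
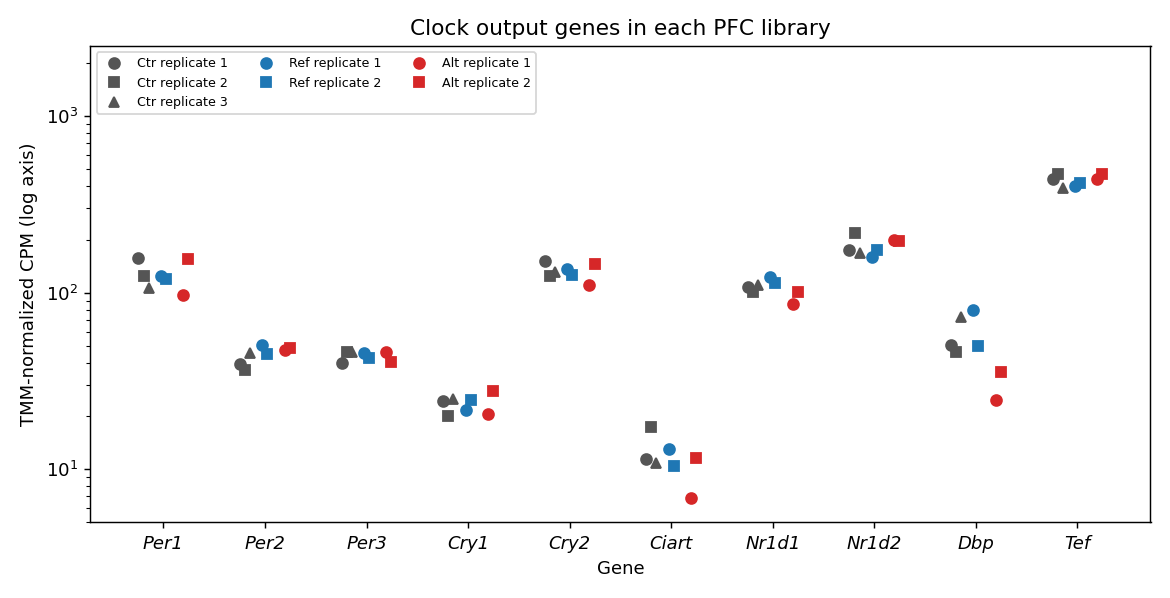
TMM-normalized CPM (log axis) of the 10 clock output genes, with 1 point per library, grouped as Ctr (gray), Ref (blue) and Alt (red). Dbp lies lowest in the 2 Alt libraries, at 24.7 and 35.4 CPM against 46.1 to 79.2 in the other 5, while the points of Per3 and Tef lie close together.

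Dbp encodes a PAR bZIP activator and is a classic clock output. The table lists it as ENSMUSG00000059824.13 on the plus strand of chromosome 7, from 45354512 to 45359627. Its level was 50.5, 46.1 and 72.9 CPM in Ctr, 79.2 and 49.6 CPM in Ref, and 24.7 and 35.4 CPM in Alt. Both Alt libraries lay below every Ctr and every Ref library, while Ref and Ctr overlapped. Behind these values stood 380 and 635 reads in Alt and 937 to 1638 reads in the other libraries. The log2 difference was -0.91 for Alt versus Ctr (SE 0.263, 95% interval -1.48 to -0.33, adjusted p = 0.127 by edgeR), which is a level of 0.533 times that of Ctr. For Alt versus Ref it was -1.10 (SE 0.283, interval -1.72 to -0.48, adjusted p = 0.229 by edgeR). For Ref versus Ctr it was 0.19 (SE 0.252, interval -0.36 to 0.74, edgeR adjusted p = 1). Without Alt replicate 1, where Dbp was lowest, the Alt versus Ctr difference was -0.67 (edgeR adjusted p = 0.586), and without Ref replicate 1, where it was highest, the Alt versus Ref difference was -0.73 (edgeR adjusted p = 0.965), and both still passed the unadjusted threshold. In each of these fits 1 arm is a single library, assumed to vary like the other groups. Dbp has 2993 bases and a GC content of 61.6%, against medians of 4051 bases and 49.3% over all tested genes. After a correction for gene length the Alt versus Ctr difference was -0.72, and after one for GC content -0.67.

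Tef encodes the related PAR bZIP factor and did not move with Dbp. It stood at 442.5, 471.9 and 391.4 CPM in Ctr, 401.5 and 416 in Ref, and 437.9 and 467.2 in Alt. Alt and Ctr overlapped, and the Alt versus Ctr difference was 0.06 on the log2 scale (interval -0.26 to 0.37). Its 2 Alt libraries lay above both Ref libraries, with a difference of 0.15 (interval -0.20 to 0.49).

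**Figure D2:**
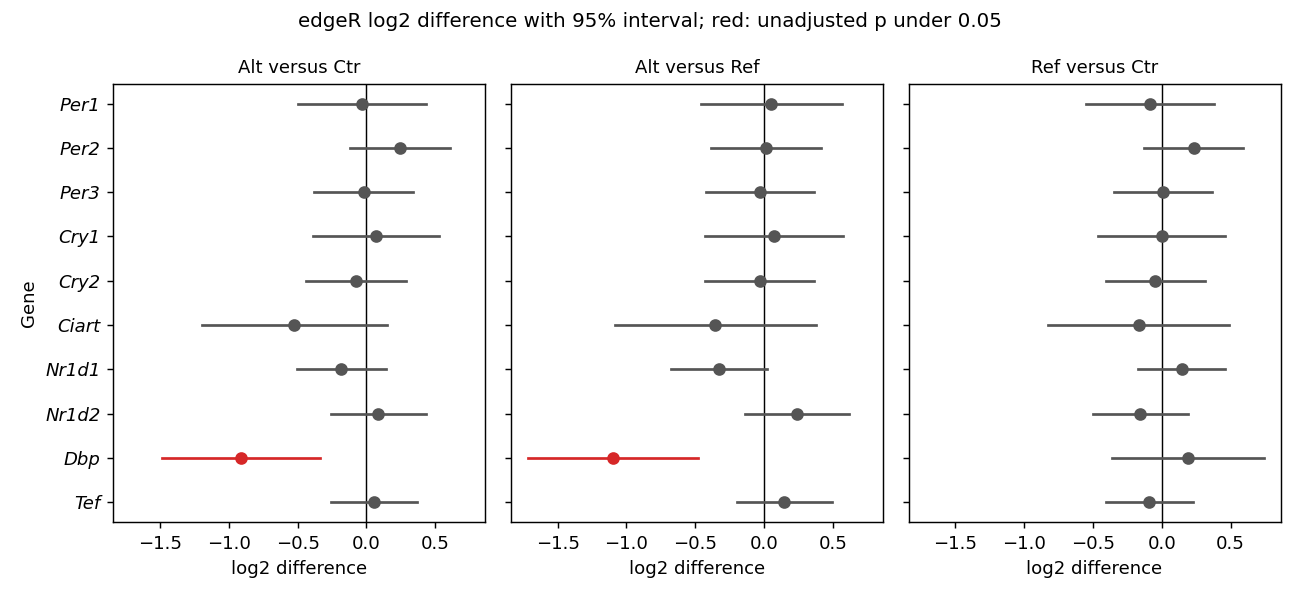
Log2 difference (x axis) of each clock output gene with its 95% interval from edgeR, for Alt versus Ctr, Alt versus Ref and Ref versus Ctr. Red marks an unadjusted p under 0.05, which Dbp alone reached, at -0.91 and -1.10 in the 2 comparisons with Alt.

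The Period genes encode the proteins that join CRY to block CLOCK and BMAL1. Per1, which also answers quickly to neuronal activity and to hormones, stood at 156.4, 124.9 and 106.2 CPM in Ctr, 124.1 and 119.6 in Ref, and 97.3 and 155.2 in Alt. The Alt libraries lay at opposite ends of this range, and the Alt versus Ctr difference was -0.03 (log2, interval -0.50 to 0.43). Per2 stood at 39.4, 36.7 and 45.8 CPM in Ctr, 50.3 and 45.0 in Ref, and 47.4 and 48.7 in Alt. Alt lay above every Ctr library without overlap, but the difference of 0.24 (interval -0.12 to 0.61, edgeR adjusted p = 0.44) did not pass. Per3 kept between 39.9 and 46.0 CPM in all 7 libraries, and its Alt versus Ctr difference was -0.02 (interval -0.38 to 0.34).

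Cry1 and Cry2 encode the cryptochromes, the main repressors of the loop. Cry1 stood between 20.08 and 24.99 CPM in Ctr, at 21.6 and 24.6 in Ref, and at 20.6 and 27.9 in Alt. Cry2 stood between 124.4 and 150.5 CPM in Ctr, at 136.3 and 125.3 in Ref, and at 110.3 and 145.5 in Alt. In both genes the groups overlapped in every comparison, with Alt versus Ctr differences of 0.07 (interval -0.39 to 0.53) for Cry1 and -0.08 (interval -0.44 to 0.29) for Cry2.

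Ciart, which encodes a further repressor of CLOCK and BMAL1, was the least abundant member by reads. Its level was 11.4, 17.4 and 10.8 CPM in Ctr, 13.1 and 10.4 in Ref, and 6.83 and 11.5 in Alt. Alt replicate 1 lay below all other libraries, and Alt replicate 2 lay inside the range of Ctr. The Alt versus Ctr difference was -0.52 (interval -1.20 to 0.15, edgeR adjusted p = 0.365). Without Alt replicate 2 it was -0.94 and passed the unadjusted threshold.

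The nuclear receptor genes Nr1d1 and Nr1d2 encode REV-ERBα and REV-ERBβ, the repressors of Arntl. Nr1d1 stood at 107.4, 101.0 and 110.8 CPM in Ctr, 122.1 and 113.1 in Ref, and 86.4 and 101.1 in Alt. Ref lay above every Ctr library and above both Alt libraries, while Alt replicate 2 reached the lowest Ctr library. The difference was -0.33 for Alt versus Ref (interval -0.68 to 0.02, edgeR adjusted p = 0.354) and 0.14 for Ref versus Ctr (interval -0.18 to 0.46). Nr1d2 stood at 173.9, 218.4 and 167.0 CPM in Ctr, 160.2 and 174.4 in Ref, and 199.0 and 196.8 in Alt. Alt lay above both Ref libraries, by 0.24 (interval -0.14 to 0.62), which did not pass. After the GC correction the Nr1d1 difference between Alt and Ref was 0.03.

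Groups that did not overlap were also counted over all members. For Alt versus Ctr, 1 member lay wholly lower (Dbp) and 1 wholly higher (Per2), beside 18.1% and 16.8% of all tested genes. For Alt versus Ref, 2 lay lower (Dbp and Nr1d1) and 2 higher (Nr1d2 and Tef), beside 26.1% and 21.6%. For Ref versus Ctr, 0 lay lower and 1 higher (Nr1d1), beside 10.5% and 12.4%. These counts are near the shares of all tested genes.

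At the median the members varied less within groups than other tested genes, though single members varied more. The pooled SD within groups of log2 CPM had a median of 0.166 over the members, against 0.317 over all tested genes and 0.206 over the 8820 genes with a mean CPM at least that of Ciart. The range over all 7 libraries had a median of 0.462 for the members, against 0.701 for those 8820 genes. Within Ctr the median range was 0.316, close to their 0.324. Those 8820 genes share only a lower limit of CPM with the members and were not matched to them in level. Ciart (SD 0.391), Dbp (0.389) and Per1 (0.31) varied most within groups, and Nr1d1 (0.101), Tef (0.104) and Per3 (0.11) least. From the lowest to the highest library Dbp spanned 3.2-fold, Ciart 2.53-fold, Per1 1.61-fold and Per3 1.15-fold. Alt replicate 1 was the lowest library for 5 members, namely Per1, Cry2, Ciart, Nr1d1 and Dbp, and for 32.2% of all tested genes, the highest share of any library. The mean deviation of the 10 members from the mean of Ctr was -0.28 in this library, 0.02 in the other Alt library, 0.07 and -0.05 in Ref and at most 0.004 from 0 in Ctr. Corrected for gene length it was -0.22 in Alt replicate 1.

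The profile of the members over the 7 libraries was compared with that of every other tested protein-coding gene by the root mean square difference of centred log2 CPM. The nearest were Cnot2 (0.0366), Cs (0.0369), Klhl2 (0.0383), Akirin1 (0.0391) and Rnf44 (0.04). Among the members themselves Nr1d1 (0.0858) and Cry2 (0.0899) lay nearest to the mean profile, and Dbp (0.458) farthest.

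**Figure D3:**
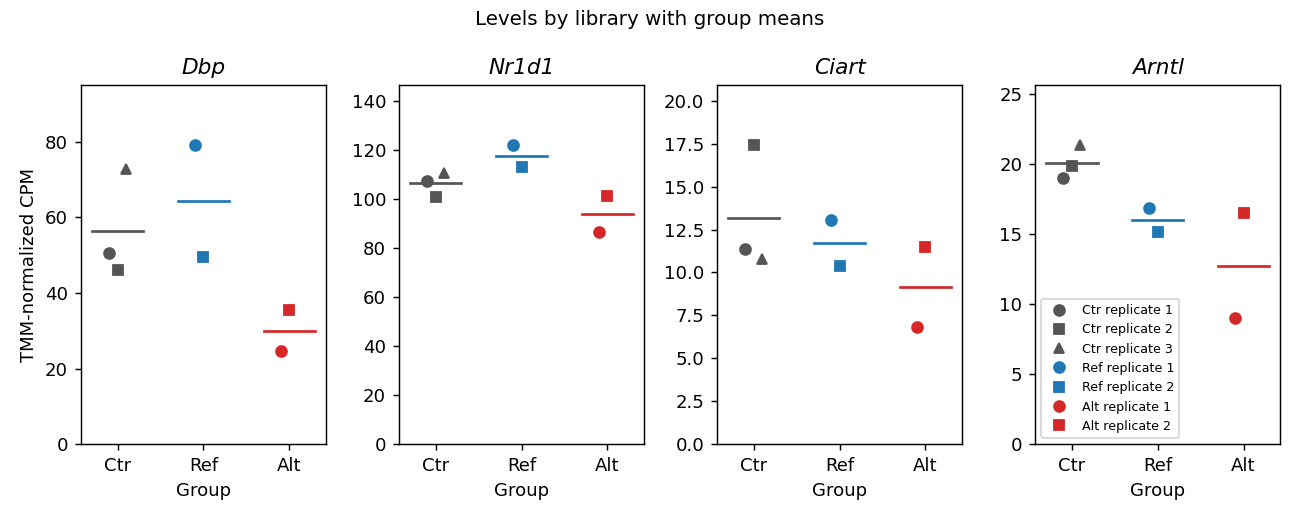
TMM-normalized CPM of Dbp, Nr1d1, Ciart and Arntl by group, with 1 point per library and the group mean as a line, on axes that start at 0. In Dbp both Alt points lie below all others, whereas in Nr1d1, Ciart and Arntl Alt replicate 1 is the lowest point and Alt replicate 2 lies within the range of the other groups.

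The activating arm of the clock was followed in Clock, Arntl, Npas2, Arntl2 and the ROR receptor genes Rora and Rorb, whose proteins activate Arntl. All 6 were tested, and for Alt versus Ctr 3 were higher and 1 lower at an unadjusted p under 0.05, with none past an adjusted p of 0.05 in edgeR and Rora past it in DESeq2 (adjusted p = 0.00736), beside 9.45% of all tested genes higher and 10.3% lower. For Alt versus Ref 3 were higher (Clock by 0.67, Rora by 0.58 and Rorb by 0.52) and 0 lower, beside 6.71% and 8.83%, and Arntl did not pass at -0.33. Against Ref, the 3 missed the unadjusted threshold without Ref replicate 1 (Clock 0.51, Rora 0.38, Rorb 0.35), as did Clock (0.32) and Rora (0.37) without Alt replicate 1, Rorb (0.48) without Alt replicate 2, and all 3 after the correction for gene length (Clock 0.33, Rora 0.28, Rorb 0.31). Arntl, which encodes BMAL1, was the lower gene. It stood at 19.0, 19.8 and 21.4 CPM in Ctr, 16.8 and 15.2 in Ref, and 8.98 and 16.5 in Alt. Both Alt libraries and both Ref libraries lay below Ctr, and the Alt versus Ctr difference was -0.65 (SE 0.263, edgeR adjusted p = 0.201). Without Alt replicate 1 it was -0.28 (edgeR adjusted p = 0.754) and no longer passed the unadjusted threshold. It also missed it without Ctr replicate 2 (-0.66) or Ctr replicate 3 (-0.60).

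Clock was higher in Alt, at 214.2 and 136.9 CPM against 89.7, 138.4 and 126.3 in Ctr and 99.4 and 121.9 in Ref. Its Alt versus Ctr difference was 0.57 (edgeR adjusted p = 0.189), but Alt replicate 2 lay inside the range of Ctr. It missed the unadjusted threshold without Alt replicate 1 (0.22) or Ctr replicate 1 (0.41). Rora was higher by 0.75 (edgeR adjusted p = 0.12) and Rorb by 0.53 (adjusted p = 0.15). These are long genes, of 13727, 13071 and 11076 bases. After the length correction Clock differed by 0.17 and Rorb by 0.25, and neither passed the unadjusted threshold. Rora at 0.37 and Arntl at -0.77 still passed it. Npas2, the partner of BMAL1 that can replace CLOCK, stood at 0.16 (edgeR adjusted p = 0.694).

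**Figure D4:**
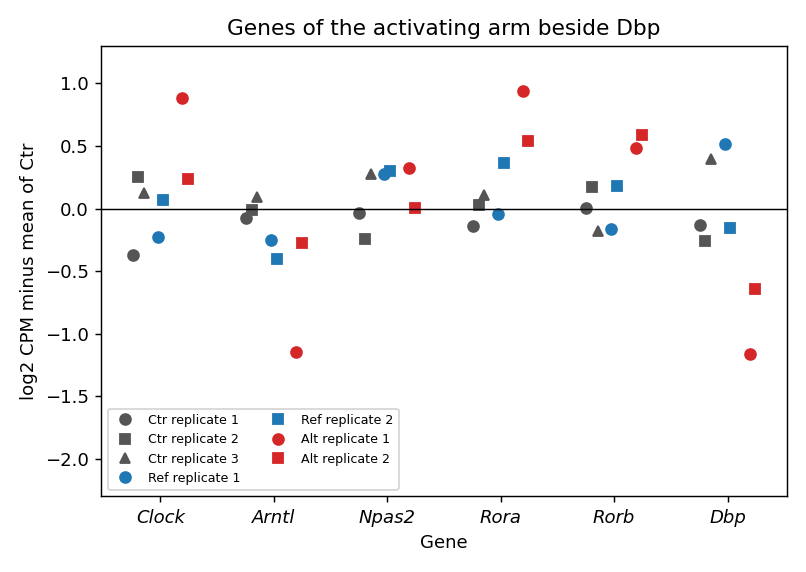
Deviation of log2 CPM from the mean of Ctr for Clock, Arntl, Npas2, Rora and Rorb beside Dbp, with 1 point per library. Arntl and Dbp lie at -1.15 and -1.16 in Alt replicate 1, where Clock and Rora lie highest.

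Of 19 further clock genes (kinases, ligases, cofactors and output genes), 17 were tested. For Alt versus Ctr 1 was higher, Gsk3b, a kinase that acts on clock proteins, by 0.58 (adjusted p = 0.127 in edgeR and 0.0223 in DESeq2), and 1 lower, Timeless, with a difference of -1.48 (adjusted p = 0.251) at levels of 1.00 to 4.97 CPM, beside 9.45% of all tested genes higher and 10.3% lower. Gsk3b missed the unadjusted threshold without Alt replicate 1 (0.37), and Timeless missed it when any library but Ctr replicate 2 was left out (-1.62 to -0.81). For Alt versus Ref Gsk3b was again higher, by 0.62 (adjusted p = 0.236 in edgeR and 0.0391 in DESeq2; 0.47 and not past the unadjusted threshold without Ref replicate 1), and Tsc22d3 lower, at -1.23 (adjusted p = 0.229 in edgeR and 0.013 in DESeq2), beside 6.71% and 8.83%. Neither comparison with Alt thus gave more calls than the shares of all genes. Tsc22d3, an output gene that glucocorticoids also induce, was the 1 gene higher in Ref than in Ctr, by 0.67 (edgeR adjusted p = 1), and it missed the unadjusted threshold without Ref replicate 1 (0.42), Ctr replicate 2 (0.68) or Ctr replicate 3 (0.45). For Ref versus Ctr 2.19% of all tested genes were higher and 0.945% lower.

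Glucocorticoids and neuronal activity also act on clock genes, Per1 among them, so gene lists for both were counted beside them. In edgeR no gene of either list passed an adjusted p of 0.05. In DESeq2, of the glucocorticoid list, Zbtb16 passed it for Alt versus Ctr (higher) and Sgk1 and Tsc22d3 for Alt versus Ref (lower), and of the immediate early genes Arc passed it as lower in both, and Npas4 as lower in Alt and in Ref than in Ctr. Of 10 glucocorticoid target genes, 10 lay higher in Ref than in Ctr, 5 of them at an unadjusted edgeR p under 0.05 (2.19% of all tested genes, median log2 difference 0.59 against 0.01), and 10 lay lower in Alt than in Ref, 6 of them at that p (8.83% of all tested genes, median -0.77 against -0.04). Fkbp5, which encodes a cochaperone of the glucocorticoid receptor, was higher in Ref than in Ctr by 0.87, and Sgk1 by 0.77 (edgeR adjusted p = 1 for both). For Alt versus Ctr the list was split, with 5 higher and 5 lower, of which 1 each way met that p, near the 9.45% and 10.3% of all tested genes. The 10 oligodendrocyte markers differed in the same pattern, with 10 higher in Ref than in Ctr (8 at that p, median 0.78) and 10 lower in Alt than in Ref (8 at that p, median -0.85), Mbp among them as the gene past an adjusted p of 0.05 in edgeR, and their part in the glucocorticoid counts was not tested. Of 10 immediate early genes, which neurons switch on within minutes of activity, 9 lay lower in Alt than in Ctr, 4 of them at an unadjusted edgeR p under 0.05 (10.3% of all tested genes), namely Arc at -1.36, Npas4 at -1.54, Nr4a1 at -0.79 and Egr1 at -0.56. Alt replicate 1, which stood apart by gene length, was the lowest library for every gene of this list. It was so for 32.2% of all tested genes. The differences given for this list are not corrected for gene length. In Arc and Npas4 both Alt libraries lay below every Ctr library. In Egr1 and Nr4a1 Alt replicate 2 lay inside the range of Ctr (407.5 against 394.8 to 555.9 CPM for Egr1), and in Fos, Fosb, Egr2, Dusp1 and Ier2 it lay above the mean log2 CPM of Ctr. In Ref versus Ctr 2 genes of the list were lower (0.945% of all tested genes), Npas4 at -1.53 and Egr1 at -0.62, close to their values for Alt. Per1 itself stood, on the log2 scale, with Alt at -0.03 from Ctr and 0.05 from Ref, and Ref at -0.08 from Ctr. The part of either list, and of the hour of dissection, in the level of Dbp was not tested.

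The spans of some members, from gene start to gene end, overlap that of another gene in the deposited coordinates. Whether exons overlap was not examined, and whether reads were counted by strand is not given in the sources used here. Dbp overlaps Sphk2 on the opposite strand by 737 bases. Sphk2 held 182 to 379 reads per library and differed by -0.27 for Alt versus Ctr (edgeR adjusted p = 0.506) and by -0.48 for Alt versus Ref (adjusted p = 0.34), the same sign as Dbp. Nr1d1 overlaps Thra on the opposite strand by 1075 bases, and Thra held 5664 to 12720 reads, more than Nr1d1 in every library, with differences of -0.30 for Alt versus Ctr (edgeR adjusted p = 0.345) and -0.38 for Alt versus Ref (adjusted p = 0.357), the same sign as Nr1d1. The span of Per3 lies inside that of Camta1 on the same strand over 41014 bases, and Camta1 differed by 0.39 for Alt versus Ctr (edgeR adjusted p = 0.206) and by 0.40 for Alt versus Ref (adjusted p = 0.316). Antisense noncoding genes that overlap Cry2, Ciart and Tef held at most 29 reads in any library. The values of Dbp, Nr1d1 and Per3 are uncertain to the extent that reads of these partners were assigned to them.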

How the data were processed

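RNA was extracted from PFC tissue with Trizol, enriched for poly(A) transcripts and sequenced. The submitters' processing notes name STAR, featureCounts and hg19, a human build, with no role or version, and the build behind the mouse gene coordinates is not given in the sources used here. The authors deposited raw read counts per gene, and beside them TPM and FPKM values. Counts were tested, TPM were used for levels between genes, and FPKM were not used.

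Counts were analyzed in R 4.3.3 with edgeR 4.0.16 (TMM, filterByExpr by group, glmQLFit and glmQLFTest on group means of all 7 libraries, Benjamini-Hochberg over 17254 genes). The paper tested its ordered groups with DESeq2, which was an alternative here, so the main test differs from the paper's. The edgeR test keeps the study's order of groups, since the linear term of an ordered factor has the p of Alt versus Ctr. CPM are TMM-normalized, and log2 CPM used a prior count of 2. SEs were derived from the log2 difference and the quasi-likelihood F statistic of its test, and the 95% intervals from these SEs. DESeq2 1.42.0, other normalizations, a fit without the low-count filter, loess corrections (span 0.3) by gene length or GC content, the replicate number, robust fitting and leaving out each library were alternatives. Scripts were tested on simulated data.

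Members and gene lists were chosen with earlier results of these data known. Named are all members, overlapping protein-coding genes, Clock, Arntl, Npas2, other clock genes at an unadjusted p under 0.05 and the 5 genes with the nearest profile. Genes of the other lists that met that p, markers included, were counted and not all named, a departure from the rule set. Further lists were counted at that p, to be read against 9.45% of all tested genes higher and 10.3% lower for Alt versus Ctr, 6.71% and 8.83% for Alt versus Ref, and 2.19% and 0.945% when Ref is set against Ctr. In that order of comparisons, the higher and lower counts were 0 and 1, 0 and 2, and 1 and 0 of 5 tested possible neighbors, 2 and 0, 1 and 0, and 0 and 0 of 7 neuron markers, 1 and 1, 2 and 0, and 0 and 2 of 6 cortex markers, 0 and 2, 0 and 8, and 8 and 0 of 10 oligodendrocyte markers, 1 and 0, 0 and 0, and 2 and 0 of 7 astrocyte markers, 1 and 1, 0 and 2, and 0 and 0 of 7 microglia markers, 3 and 0, 2 and 0, and 2 and 0 of 7 endothelial and mural markers, 0 and 1, 0 and 1, and 0 and 0 of 6 striatum markers, and 0 and 1, 0 and 0, and 0 and 0 of the 1 suprachiasmatic and hypothalamic marker tested. The depth was 16655697 to 20750857 reads, and the precision of a value depends on the spread between libraries as well. PAXIP1-AS1 itself was not analysed here, and a further gene of the activating arm is not reported here.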

Additional observations from a re-analysis of the deposited data

How the results depend on the processing

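Dbp kept its direction and an unadjusted p under 0.05 for Alt versus Ctr and Alt versus Ref under all alternatives run, with log2 differences from -1.19 to -0.67 and from -1.39 to -0.65. The count of members at an adjusted p of 0.05 rose from 0 to 1 (Dbp) in both comparisons by DESeq2 (6.36% and 2.49% of all genes tested) and without the low-count filter (5.52% and 3.16%), and lay between 0 and 1 when libraries were left out (1 without Alt replicate 2, beside 18.3% and 14.4%). At an unadjusted p, 2 members were called for Alt versus Ref with library totals (Nr1d1 and Dbp, beside 16% of all genes) and, with the GC correction, which was chosen after seeing the data, 2 for Alt versus Ctr (Per2 and Dbp, beside 21.2%) and 2 for Alt versus Ref (Dbp and Tef, beside 16.6%). Leaving out libraries gave 1 to 2 for Alt versus Ctr and 1 to 3 for Alt versus Ref, the highest in both without Alt replicate 2, where Ciart and, against Ref, Nr1d1 joined Dbp and 33.2% and 28.9% of all genes were called. Without any 1 Ref or Alt replicate that group is 1 library, assumed to vary like the other groups. The causes were not tested.

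Signs turned for Alt versus Ctr in differences that passed no threshold: Per3 to 0.006 (DESeq2), 0.006 (RLE factors) and 0.133 (GC), Cry1 to -0.057, Nr1d2 to -0.043 and Tef to -0.073 (library totals, which moved the median of all genes to -0.156), Nr1d1 to 0.006 and Tef to -0.1 (length), Per1 to 0.164, Cry2 to 0.124 and Nr1d1 to 0.039 (GC). Nr1d1 turned to 0.034 for Alt versus Ref and Dbp to -0.018 for Ref versus Ctr (GC). Over libraries left out, Alt versus Ctr ran from -0.408 to 0.266 for Per1, -0.108 to 0.067 for Per3, -0.165 to 0.272 for Cry1, -0.292 to 0.109 for Cry2, -0.015 to 0.12 for Tef and -0.008 to 0.31 for Npas2, and Dbp for Ref versus Ctr from -0.186 to 0.478. The mean deviation of the members in Ref replicates 1 and 2 and Alt replicates 1 and 2 was 0.091, -0.129, -0.437 and -0.087 with library totals and -0.008, -0.112, -0.222 and 0.008 after the length correction, which moved that of Clock, Arntl and Npas2 in Alt replicate 1, where Clock and Arntl deviated in opposite directions, from 0.019 to -0.213.

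Replicate numbers come from the labels, and correlations of same-numbered libraries in their deviations ran from -0.0984 to 0.0702. The deviations were taken from group means, so the 2 libraries of Ref, and those of Alt, mirror each other. These correlations are therefore tied to each other and are a weak check on pairing. With the replicate number as a block, which leaves Ctr replicate 3 without a partner, 1, 1 and 0 members were called for Alt versus Ctr, Alt versus Ref and Ref versus Ctr (beside 12.6%, 9.01% and 2.49% of all genes), Dbp differed by -0.672 for Alt versus Ctr (adjusted p = 0.393 by edgeR), and Per3 and Tef turned to 0.013 and -0.015. Calls that missed the unadjusted threshold in this fit were those of Clock (0.642), Arntl (-0.639), Rorb (0.452) and Timeless (-1.433) for Alt versus Ctr, Clock (0.68) against Ref, and Tsc22d3 (0.451) for Ref versus Ctr.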
